A study of Saccharomyces cerevisiae with 7 samples.

Results

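The genes described here encode the subunits of the 3 nuclear RNA polymerases of budding yeast, Saccharomyces cerevisiae. They were taken by gene symbol from a list of 31 subunit genes, of which 30 had a probe among the 5470 named genes on the arrays. RPC10, which encodes a small subunit common to all 3 enzymes, had no probe with its symbol and is not analysed here. The list held 7 genes of polymerase I alone, 10 of polymerase III alone, 7 of polymerase II alone, 2 whose products sit in both I and III, and 5 whose products sit in all 3.

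The study followed a yeast culture through the diauxic shift, when glucose runs out and yeast moves from fermentation to respiration of the ethanol left behind. RNA was taken at 0 h (0.14 OD, 19 g/L glucose), 9.5 h (0.46 OD, 18.7 g/L), 11.5 h (0.80 OD, 17.6 g/L), 13.5 h (1.8 OD, 14 g/L), 15.5 h (3.7 OD, 7.5 g/L), 18.5 h (6.9 OD, 0.2 g/L) and 20.5 h (7.3 OD, 0 g/L). Each time point was 1 array with 2 channels, and the other channel of every array held RNA of the 0.14 OD culture. The labels give neither a strain nor the number of flasks, and there were no replicates.

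Every value below is a log2 ratio of the culture at that time over the 0.14 OD culture, after each array was centred on its median, so -1 is 2-fold lower than the 0.14 OD culture relative to the median gene. This direction is the likely one, although the labels do not settle which channel was divided by which. A centred ratio does not show a change of total mRNA per cell, and a lower ratio from fewer cells using a gene and from less RNA in each cell cannot be told apart in such bulk RNA. The 0 h array, labelled as the same culture in both channels, gives the background: all genes had an SD of 0.29 on it, and the 30 subunit genes lay between -0.42 and 0.35. No subunit gene had a second spot. Among 75 other genes with several spots, the SD between spots of a gene was least on the 13.5 h array (0.19) and greatest on the 18.5 h array (0.45).

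RNA polymerase I transcribes the ribosomal RNA precursor, polymerase III makes transfer RNAs and 5S ribosomal RNA, and polymerase II makes messenger RNAs. The enzymes share a common core of catalytic, assembly and small common subunits, and each adds a stalk and subunits of its own, some of which resemble initiation factors of polymerase II. In growing yeast, polymerases I and III together make the bulk of cellular RNA, and the output of both is known to be lowered when nutrients run short.

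Subunit genes of polymerases I and III fell as glucose was consumed, while fewer of those of polymerase II did. The test regressed each gene's log2 ratio on how much of the initial glucose had been used (limma, lmFit and eBayes, adjusted by Benjamini-Hochberg over 4807 genes with a value on all 7 arrays), and a gene passed at an adjusted p under 0.05. The fitted change is the log2 difference that the line gives between 0 and 19 g/L glucose, below 0 where the ratio was lower without glucose. Of 26 subunit genes tested, 18 fell and 0 rose, against 19% of all genes tested that fell and 19.5% that rose. If the ratios ran the other way, the same counts would be 18 risen and 0 fallen, and every sign below would turn. The other 8 did not pass, and all 26 fitted changes were below 0, although those of RPA135, RPA14, RPC25 and RPB4, none of which passed, turned above 0 in some other settings. The count that fell was 7 with all arrays scaled to one spread or with hours in place of glucose, and 11 without the 0 h and 9.5 h arrays. Over all genes tested, the median fitted change was 0.02. With the arrays as deposited, not centred, the median fitted change was 0.20, 16 subunit genes fell, and over all genes 1223 rose and 708 fell, against 936 and 913 after centring.

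The classes differed in their counts and medians. Of the polymerase I genes 5 of 7 fell, with a median fitted change of -1.25. Of 9 tested polymerase III genes 7 fell, with a median of -0.87. Of 6 tested polymerase II genes 2 fell, where 19% of all genes did. The median of the 6 was -0.47, which came to -0.16 without the 20.5 h array. With hours in place of glucose, and without the 0 h and 9.5 h arrays, 0 polymerase II genes fell, where 4.85% and 8.86% of all genes did. In those settings 4 and 5 polymerase I genes fell, and 1 and 2 polymerase III genes. Without the 0 h and 9.5 h arrays the medians for polymerases I, III and II were -1.15, -0.84 and -0.64. As a step of the 2 late arrays, 5 of 7, 6 of 9 and 3 of 6 fell, against 20.6% of all genes. Their medians were then -1.02, -0.70 and -0.56. Over glucose consumed, all 3 tested subunits common to the enzymes fell, with a median of -1.24. It came to -0.82 without the 20.5 h array. So did RPC40, the tested one of the 2 genes shared by I and III. The medians are descriptions of the listed genes, and no test was made between the classes as wholes.

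**Figure D1:**
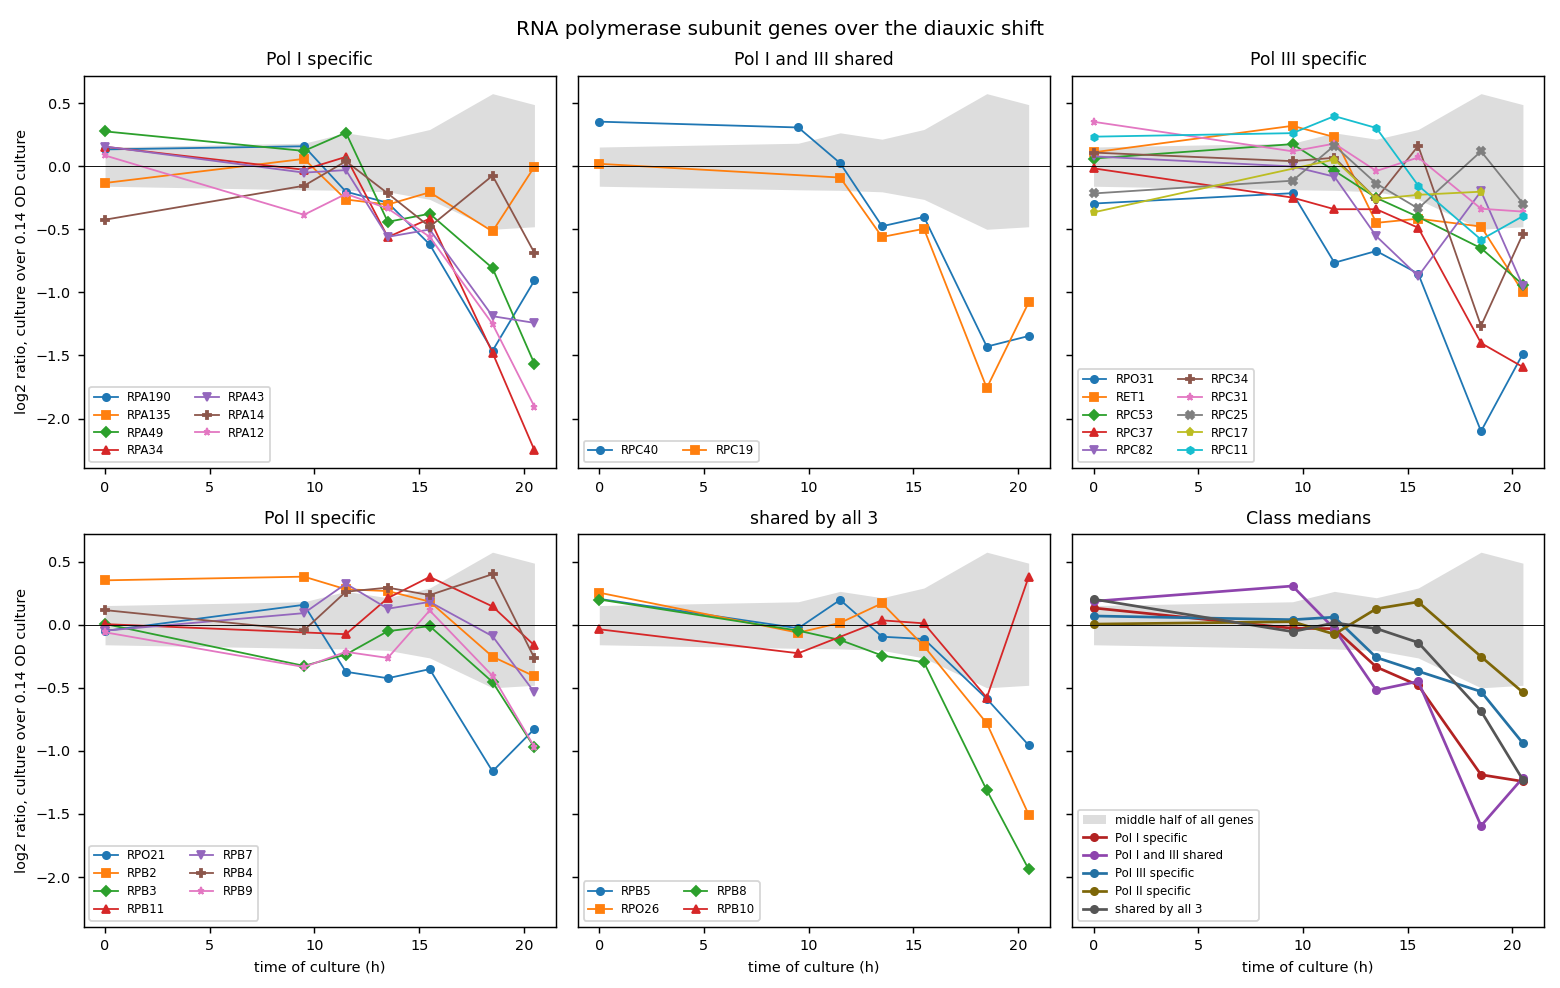
Log2 ratio of the culture over the 0.14 OD culture (vertical axis) against time in hours (horizontal axis) for the 30 subunit genes, 1 line per gene and 1 panel per class, with the class medians in the last panel. Grey marks the range between the quartiles of all genes on each array. The polymerase I medians were -1.19 at 18.5 h and -1.24 at 20.5 h, while the polymerase II medians were -0.25 and -0.54.

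The lowest values came on the late arrays. In order of time, the medians over the subunit genes were 0.08, -0.03, 0.01, -0.26, -0.32, -0.58 and -0.95. At 15.5 h, with 7.5 g/L glucose left, 0 of 30 were at least 2-fold below the 0.14 OD culture, against 2.02% of all genes. At 18.5 h, with 0.2 g/L left, 11 of 30 were, against 11.5% of all genes. At 20.5 h, with none left, 10 of 29 were, again against 11.5%. The 18.5 h array stood below the 15.5 h array for 25 of 30 subunit genes, against 50.1% of all genes. Of the 26 with all values, 13 had their largest fall between neighbouring arrays on reaching 18.5 h and 10 on reaching 20.5 h, where 32.9% and 24.3% of all genes had theirs. These counts rest on single arrays and have no test.

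Most polymerase I and III genes were already somewhat low before that. At 13.5 h, with 14 g/L glucose left, all 7 polymerase I genes lay below 0, between -0.56 and -0.22, and 9 of 10 polymerase III genes did. At the same time 3 of 7 polymerase II genes lay below 0, and their median was 0.13. The median of all genes was then 0.005. RPA14, RPC17 and RPC25 had been lower still at 0 h, at -0.42, -0.37 and -0.22, and so showed no fall by 13.5 h. The 0 h medians were 0.13 for polymerase I and 0.07 for polymerase III. At 15.5 h the medians were -0.48 for polymerase I, -0.37 for polymerase III and 0.18 for polymerase II. The lower quartiles of all genes at 13.5 h and 15.5 h were -0.20 and -0.26. On both arrays the polymerase I and III medians lay below the lower quartile and the polymerase II medians did not.

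Polymerase I was led by the pair of subunits that resembles the factor TFIIF and by the zinc ribbon subunit. RPA34 (YJL148W), which with RPA49 forms a pair that helps the enzyme start and elongate, had log2 ratios of 0.15, -0.03, 0.07, -0.56, -0.42, -1.48 and -2.25 from 0 h to 20.5 h. It fell by 1.87 ± 0.30 (SE, 7 arrays; limma adjusted p = 9.89e-04), a fitted 3.67-fold. Its values were near 0 up to 11.5 h, and those of the last 2 arrays lay apart from the other 5. RPA49 (YNL248C) had 0.28, 0.12, 0.27, -0.44, -0.38, -0.81 and -1.57, and fell by 1.38 ± 0.26 (limma adjusted p = 0.00240). RPA12 (YJR063W), whose product helps the enzyme cleave its transcript, had 0.09, -0.39, -0.22, -0.34, -0.56, -1.25 and -1.91, and fell by 1.41 ± 0.26 (limma adjusted p = 0.00226). For both genes the 20.5 h array was the lowest.

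RPA190 (YOR341W), the largest and catalytic subunit gene of polymerase I, had 0.13, 0.16, -0.20, -0.29, -0.62, -1.46 and -0.91 and fell by 1.25 ± 0.22 (limma adjusted p = 0.00160). Its lowest value was at 18.5 h. RPA43 (YOR340C), a stalk subunit gene whose product meets the initiation factor Rrn3, had 0.16, -0.05, -0.03, -0.56, -0.50, -1.19 and -1.24 and fell by 1.22 ± 0.20 (limma adjusted p = 0.00127). RPA190 and RPA43 are next to each other on chromosome XV in the RefSeq annotation of the R64 assembly, the only neighbours among the members, and both passed in each fit that left out 1 array.

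The other catalytic subunit gene of polymerase I did not pass. RPA135 (YPR010C), the second largest subunit, had -0.13, 0.06, -0.26, -0.30, -0.21, -0.52 and 0.00, with a fitted change of -0.14 ± 0.21 (limma adjusted p = 0.632). The stalk gene RPA14 had -0.42, -0.16, 0.04, -0.22, -0.48, -0.08 and -0.69, with a fitted change of -0.23 ± 0.24. Neither passed in any fit that left out 1 array, and the sign of both turned in some settings.

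The assembly subunits of polymerases I and III, which form the platform on which the catalytic subunits are joined, were low on both late arrays. RPC40 (YPR110C) had 0.35, 0.31, 0.02, -0.48, -0.40, -1.43 and -1.35 and fell by 1.59 ± 0.22 (limma adjusted p = 5.19e-04), with the lowest adjusted p of the subunit genes. Its partner RPC19 (YNL113W) had a blank at 9.5 h and so was not among the 26 genes tested. The other values of RPC19 were 0.02, -0.09, -0.56, -0.50, -1.76 and -1.08. In a fit that admitted genes with at least 5 values, RPC19 fell by 1.35 ± 0.29 on 6 arrays (limma adjusted p = 0.00596).

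In polymerase III the catalytic subunit gene was among the lowest. RPO31 (YOR116C), the largest subunit, had -0.30, -0.21, -0.77, -0.67, -0.85, -2.10 and -1.49, and fell by 1.38 ± 0.26 (limma adjusted p = 0.00227). It was already below 0 at 0 h and 9.5 h, and without those 2 arrays its fitted change was -1.24 (limma adjusted p = 0.0518). RET1 (YOR207C), the second largest subunit gene, had 0.11, 0.32, 0.23, -0.45, -0.42, -0.48 and -0.998. It fell by 0.94 ± 0.23 (limma adjusted p = 0.0103), a call lost without the 20.5 h array (-0.76, adjusted p = 0.0604).

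The TFIIF-like pair of polymerase III, which serves in elongation and termination, also fell. RPC37 (YKR025W) had -0.02, -0.25, -0.34, -0.34, -0.49, -1.40 and -1.59 and fell by 1.30 ± 0.22 (limma adjusted p = 0.00154), and at 20.5 h it stood below RPO31. RPC53 (YDL150W) had 0.06, 0.18, -0.04, -0.25, -0.40, -0.65 and -0.94 and fell by 0.87 ± 0.19 (limma adjusted p = 0.00479). RPC11 (YDR045C), the subunit gene needed for transcript cleavage and for termination, fell by 0.83 ± 0.19 (limma adjusted p = 0.00669). Its values were 0.23, 0.26, 0.40, 0.30, -0.15, -0.58 and -0.40, above 0 up to 13.5 h and below 0 from 15.5 h.

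The 3 subunits that polymerase III uses in initiation held less firmly. RPC34, whose product meets the initiation factor Brf1, had 0.11, 0.04, 0.07, -0.26, 0.16, -1.27 and -0.54, and fell by 0.89 ± 0.29 (limma adjusted p = 0.0341). That change was -0.45 without the 18.5 h array (adjusted p = 0.226), and the call was also lost without the 0 h (0.0757), 9.5 h (0.0644) or 11.5 h array (0.0602). RPC31 fell by 0.54 ± 0.19 (limma adjusted p = 0.0429), with values of 0.35, 0.12, 0.18, -0.04, 0.07, -0.34 and -0.36. Leaving out any array but that of 15.5 h ended the call of RPC31, with adjusted p between 0.0620 and 0.150. RPC82 did not pass (-0.63 ± 0.28, limma adjusted p = 0.101). Its 18.5 h value of -0.20 lay above those of 15.5 h (-0.87) and 20.5 h (-0.95), and leaving out that 18.5 h array made it pass (-1.06, adjusted p = 0.0137).

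The stalk genes of polymerase III, whose products help the enzyme start, did not pass. RPC25 had -0.22, -0.12, 0.16, -0.14, -0.34, 0.12 and -0.30, with a fitted change of -0.05 ± 0.22 (limma adjusted p = 0.859). RPC17 had blanks at 9.5 h and 20.5 h and lay between -0.37 and 0.05 on the other 5 arrays. On those 5 arrays its fitted change was -0.02 ± 0.28.

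Among the tested polymerase II genes the 2 large catalytic subunits passed and the other 4 did not. RPO21 (YDL140C), the largest and catalytic subunit gene, had -0.05, 0.16, -0.37, -0.42, -0.35, -1.16 and -0.83. It fell by 0.89 ± 0.22 (limma adjusted p = 0.0109). It was the polymerase II gene at least 2-fold below the 0.14 OD culture at 18.5 h, and its call was lost without that array (-0.71, adjusted p = 0.0693). RPB2 (YOR151C), the second largest, had 0.35, 0.38, 0.28, 0.27, 0.18, -0.25 and -0.41. It fell by 0.67 ± 0.19 (limma adjusted p = 0.0174), a call lost without the 0 h (adjusted p = 0.0505), 9.5 h (0.0519) or 20.5 h array (0.0711). Its 2 late values lay below 0 by about as much as its first 2 lay above it.

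RPB3, one of the assembly subunit genes, had a fitted change of -0.51 ± 0.25 (limma adjusted p = 0.129), and RPB9, whose product bears on the choice of start site, one of -0.42 ± 0.26 (0.228). Both were lowest at 20.5 h, each at -0.97. The stalk genes RPB7 and RPB4, whose products also act in the fate of mRNA, had fitted changes of -0.41 ± 0.23 and -0.04 ± 0.23. RPB4 was at 0.40 at 18.5 h, the highest of the subunit genes on that array, and at -0.27 at 20.5 h. RPB11, the partner of RPB3, was blank at 9.5 h and lay between -0.16 and 0.38 on the other 6 arrays, with a fitted change of 0.01 ± 0.24 on them.

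The tested common subunits all fell. RPB8 (YOR224C) had 0.20, -0.05, -0.12, -0.24, -0.30, -1.31 and -1.94 and fell by 1.62 ± 0.28 (limma adjusted p = 0.00148), a fitted 3.07-fold. RPO26 (YPR187W) had 0.25, -0.06, 0.02, 0.17, -0.17, -0.78 and -1.50 and fell by 1.24 ± 0.28 (limma adjusted p = 0.00600), with a change of -0.82 without the 20.5 h array (adjusted p = 0.0350). RPB5 (YBR154C) had 0.20, -0.03, 0.20, -0.09, -0.11, -0.59 and -0.95 and fell by 0.88 ± 0.21 (limma adjusted p = 0.00847). All 3 were lowest at 20.5 h and next lowest at 18.5 h. RPB10 was blank at 11.5 h and was not among the 26 tested. It was below 0 at 18.5 h (-0.58) and above 0 at 20.5 h (0.38), and had a fitted change of 0.02 ± 0.30 on 6 arrays.

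**Figure D2:**
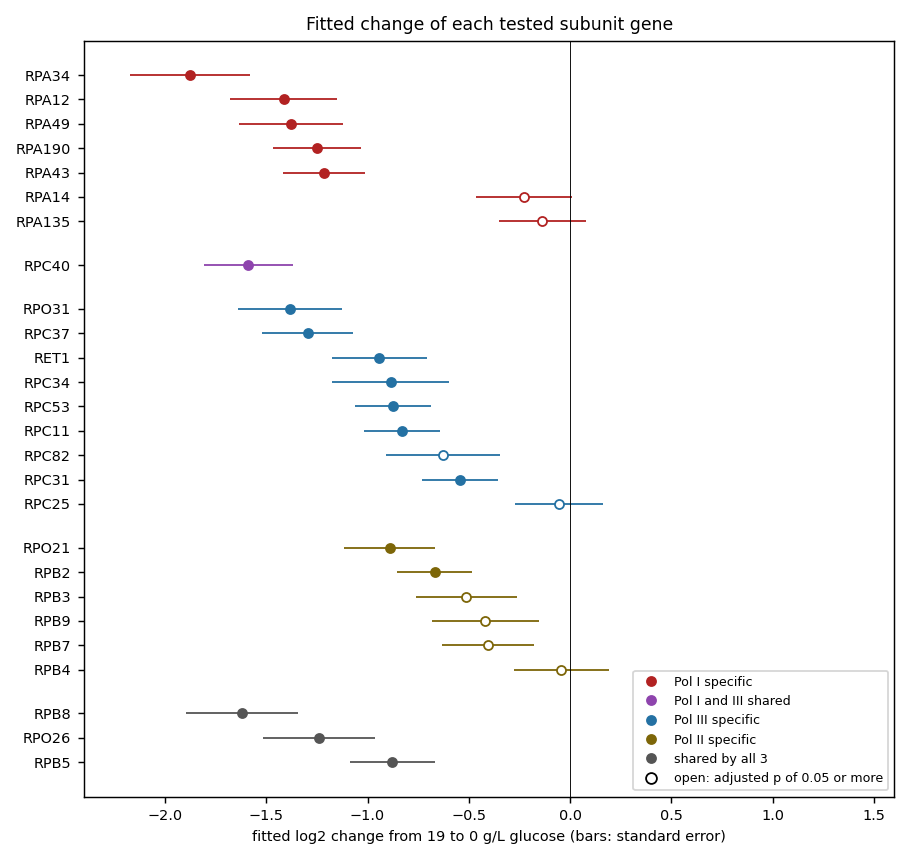
Fitted log2 change over the whole glucose range (horizontal axis) of the 26 tested subunit genes, grouped by class; bars are standard errors, filled points passed and open points did not. RPA34 is lowest at -1.87, and RPA135, RPC25 and RPB4 are near 0.

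Seen by the place a subunit takes in its enzyme, the 3 largest subunits all fell, as did the 4 TFIIF-like subunits. Of the 3 second largest subunits 2 fell, as did 2 of 3 zinc ribbon subunits and 2 of 3 subunits of the polymerase III initiation trio. Of 5 tested stalk subunits RPA43 alone passed, and the median of the 5 was -0.23. These places hold few genes each, and 1 of 5 is close to the 19% of all genes that fell.

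Subunits of the same place in 2 enzymes were also set against each other within each array, which does not depend on how the arrays are centred. The trend of the difference was tested in 14 pairs by an exact two-sided permutation test over the 7 arrays (5040 orders), adjusted over the 14 pairs. The pairs and this test were chosen after the values were seen, and the test treats the arrays as exchangeable, although they come from successive times. RPA12 became lower relative to RPB9, with a trend of the difference of -0.996 ± 0.097 (SE, log2 scale; exact permutation, adjusted p = 0.0111). From 0 h on, RPA12 minus RPB9 was 0.14, -0.05, -0.005, -0.07, -0.67, -0.85 and -0.94. It lay near 0 on the first 4 arrays and below -0.6 on the last 3. With 1 array left out the trend lay between -1.05 and -0.96. The exact permutation adjusted p was then above the threshold without the 0 h or 18.5 h array (0.0583 each) or the 20.5 h array (0.0519), where 6 arrays let a single pair go no lower than 0.0194.

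RPO31 became lower relative to RPO21, with a trend of -0.49 ± 0.12 (exact permutation, adjusted p = 0.0370). RPA43 did so relative to RPC25, at -1.16 ± 0.27 (0.0370), and to RPB7, at -0.81 ± 0.24 (0.0493). With 1 array left out, the trend of RPO31 against RPO21 lay between -0.58 and -0.34, and it passed without the 13.5 h array alone (adjusted p between 0.0389 and 0.126 over the 7 fits). RPA43 against RPC25 lay between -1.25 and -0.93 and passed without the 15.5 h array alone (0.0259 to 0.126). RPA43 against RPB7 lay between -1.03 and -0.63 and passed in 0 of 7 (0.0519 to 0.153). With the arrays scaled to one spread, the fitted changes of RPO31 and RPO21 were -0.38 and -0.41. Those of RPA12 and RPB9 were then -0.64 and -0.03, and those of RPA43, RPC25 and RPB7 were -0.67, 0.05 and -0.29.

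The other 10 pairs did not pass. RPA190 against RPO21 came to -0.36 ± 0.13 (exact permutation, adjusted p = 0.0795), RPC40 against RPB3 to -1.08 ± 0.30 (0.0717) and RPA190 against RPO31 to 0.13 ± 0.13 (0.368). The trend of RPA135 was above 0 in both of its pairs, at 0.53 ± 0.24 against RPB2 (0.0792) and 0.80 ± 0.33 against RET1 (0.0795). RPA12 against RPC11 came to -0.58 ± 0.33 (0.196) and passed without the 15.5 h array (-0.65, 0.0259). The other 4 pairs had trends of -0.27 ± 0.25 (RET1 against RPB2), -0.41 ± 0.34 (RPC11 against RPB9), 0.35 ± 0.22 (RPC25 against RPB7) and -0.18 ± 0.19 (RPA14 against RPB4).

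The 2 late arrays ordered the subunits differently. Of 29 genes with both values, 20 were lower at 20.5 h than at 18.5 h, against 54.9% of all genes. The median difference over the 29 was -0.31, where the median over all genes was -0.06. The largest subunit of each enzyme was among the 9 that were higher at 20.5 h, by 0.56 for RPA190, 0.61 for RPO31 and 0.34 for RPO21. RPA34, RPA49, RPA12, RPB8 and RPO26 were lower at 20.5 h by between 0.63 and 0.77. The quartiles of this difference over all genes were -0.36 and 0.27, and the SD between spots of a gene was 0.45 at 18.5 h and 0.34 at 20.5 h. With 1 array each, these differences have no replicate check.

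**Figure D3:**
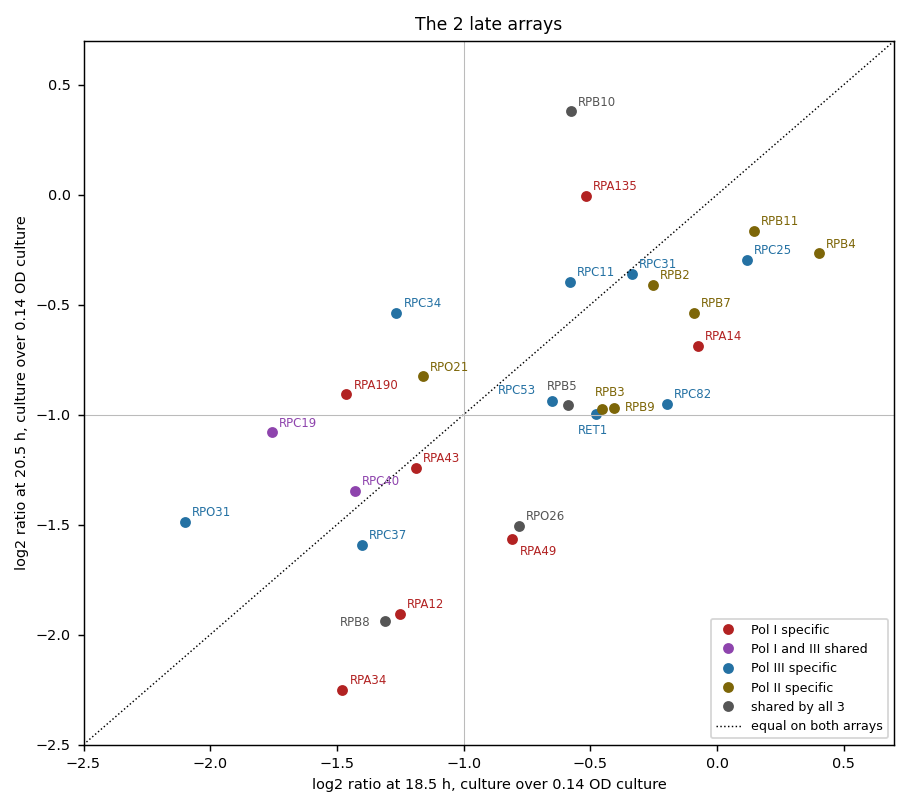
Log2 ratio at 20.5 h (vertical axis) against that at 18.5 h (horizontal axis) for the 29 subunit genes with both values, coloured by class. The dotted line marks equal values and grey lines mark -1. RPA34 is at -1.48 and -2.25, RPO31 at -2.10 and -1.49, and 8 genes lie at or below -1 on both arrays.

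Those 8 genes were RPA34, RPA43, RPA12, RPC40, RPC19, RPO31, RPC37 and RPB8. They were 8 of 29 subunit genes with both values, against 8.07% of all genes. None was of polymerase II alone, a class of 7, in which that share gives less than 1 gene.

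The tested genes for initiation and elongation factors of the polymerases did not pass in either direction. Of 8 listed initiation factors of polymerase I, such as RRN3 and the upstream activating factor gene UAF30, 6 were tested, with a median fitted change of 0.01, and RRN5, another gene of the upstream activating factor, lay farthest from 0 (0.43 ± 0.24). With blanks admitted, RRN11, a core factor gene, lay farther, at -0.81 ± 0.36 (limma adjusted p = 0.104), and the median of the 8 was -0.15. Of 8 for polymerase III (TFC genes, BRF1 and BDP1) all were tested, with a median of 0.15, led by BRF1 at 0.49 ± 0.20 (limma adjusted p = 0.0700). Of 11 general initiation and elongation factor genes of polymerase II 9 were tested, with a median of 0.12, led by the elongation factor TFIIS gene DST1 at -0.52 ± 0.19 (limma adjusted p = 0.0508). In all, 0 of 23 passed by limma, where 19% of all genes fell and 19.5% rose. At an unadjusted p under 0.05 there was 1 lower and 1 higher.

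Leaving out 1 array let single tested ones pass. These were DST1 (lower) and BRF1 (higher) without the 11.5 h array, DST1 without 15.5 h and TFC4 (higher) without 20.5 h. TFA2, on the polymerase II list, was blank at 13.5 h and so was not among the 23 tested. With blanks admitted TFA2 rose by 0.66 ± 0.21 (limma adjusted p = 0.0343), and it also passed without the 13.5 h array. With the arrays as deposited, TFC4, TFC6 and BRF1 rose. The 2 spots of TFC3 disagreed, at -0.23 and 0.99 at 18.5 h. The subunits and these factors were not tested against each other.

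Factors that assemble polymerases and carry them into the nucleus went both ways. Of 7 genes 3 fell and 1 rose, against 19% and 19.5% of all genes, so that a single riser is no more than the share over all genes. The 3 lost their calls with the arrays scaled to one spread, with hours in place of glucose and without the 0 h and 9.5 h arrays, and with log2 OD in place of glucose 1 of them, BUD27, passed. RBA50, needed for polymerase II assembly, had 0.08, 0.14, -0.16, -0.22, -0.08, -1.53 and -0.93 and fell by 1.20 ± 0.27 (limma adjusted p = 0.00646). GPN3, a GTPase gene of polymerase II import, fell by 1.12 ± 0.28 (0.00951) and was at -1.53 at 18.5 h. Its call was lost without the 18.5 h array (-0.80, adjusted p = 0.0721). BUD27, which serves the assembly of all 3 polymerases, fell by 1.14 ± 0.25 (0.00532). IWR1, whose product guides polymerase II into the nucleus, rose by 1.05 ± 0.19 (limma adjusted p = 0.00191), with values of -0.22, -0.11, -0.17, -0.11, 0.21, 0.87 and 0.85. With hours in place of glucose IWR1 did not pass (adjusted p = 0.0740).

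Of 5 regulators of polymerase I and III output 1 fell, which is close to the 19% of all genes that did. That gene, TOD6, a repressor of ribosome-building genes, fell by 1.19 ± 0.38 (limma adjusted p = 0.0319). It was low early, with 0.31, -0.03, -0.30, -1.39, -1.44, -1.03 and -1.31, and the call was lost without the 0 h (-0.91, adjusted p = 0.108), 9.5 h (0.0850), 11.5 h (0.0600) or 20.5 h array (0.0753), with the arrays as deposited (0.0800), scaled (0.443) or without the 0 h and 9.5 h arrays, and as a step of the 2 late arrays (0.314). MAF1, the repressor of polymerase III, did not pass (0.25 ± 0.21). DOT6, the paralogue of TOD6, was at 1.30 at 20.5 h but did not pass (0.42 ± 0.28), and neither did STB3, another repressor of ribosome-building genes (0.68 ± 0.27), or SFP1, an activator of ribosomal protein genes (-0.30 ± 0.34). In other settings STB3 rose, by 0.86 as deposited, 0.76 centred in runs of 40 probe IDs, 0.73 as a step of the 2 late arrays and 0.75 without the 15.5 h array, and MAF1 rose by 0.54 in runs of 40.

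**Figure D4:**
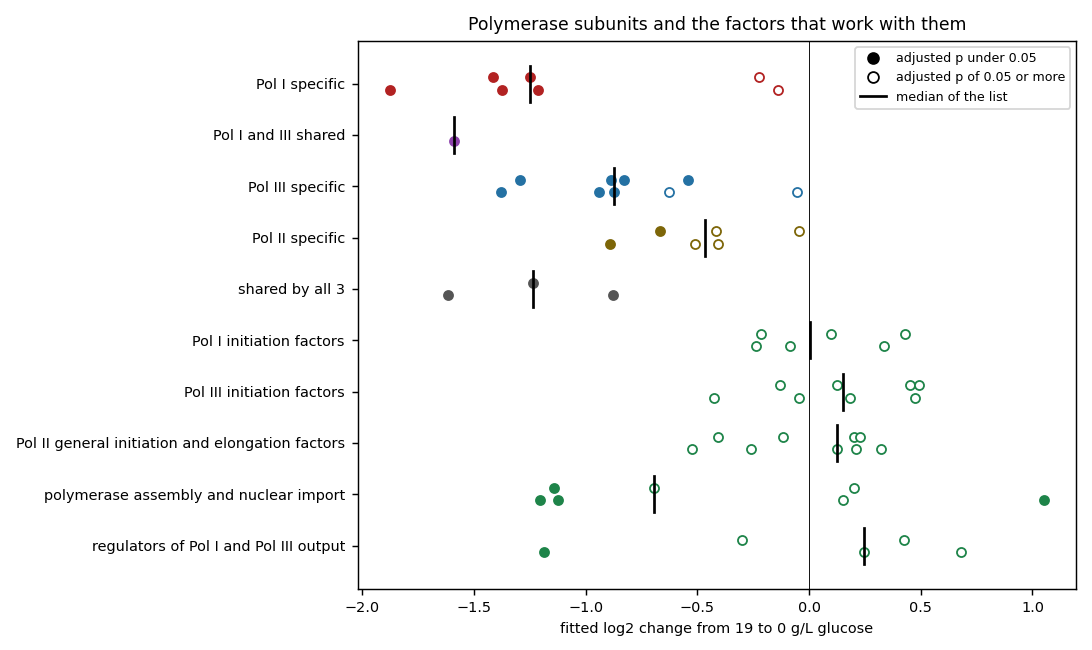
Fitted log2 change over the whole glucose range (horizontal axis) of the tested subunit genes by class and of the factors that work with them, 1 point per gene. Filled points passed, open points did not, and the black bar is the median of each list. The 23 initiation and elongation factor genes lie between -0.52 and 0.49, all open.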

How the data were processed

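The labels name the software ScanAlyze, version 2.41. The authors deposited log ratios, taken here as log2: ratios of small whole numbers piled up at log2 places (169 values at 64 places, against 120.1 from neighbouring places), not at natural log (308 against 301.8) or log10 places (1523 against 1525.4). Background correction, dye normalization, spot filter, array build and the reason for blanks were not given in the sources used here, and depth or signal cannot be had from ratios.

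The arrays had between 6048 and 6342 values. Each was centred on its median, and spots of a gene were averaged. All 5548 named probes of 6400 matched RefSeq (R64) by Entrez ID. Of 5470 genes, 663 were left out for a blank. The lowest correlation between 2 arrays was -0.28.

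The trend was fitted with limma 3.58.1 in R 4.3.3 (5 residual and 5.46 prior degrees of freedom). Its p-values measure scatter about a line over 1 time course, not spread between cultures, and treat arrays as independent. The fit was tested on simulated data. It recovered 43 of 100 genes given a log2 change of 1, and 94 of 100 given a change of 2. No other gene of the 4807 was given a change, while in the data 913 genes fell and 936 rose. With fewer changed genes the adjustment is stricter, so these recoveries do not carry over to the data. Even so, a gene that did not pass is not shown to be unchanged. Time, OD, glucose and the lot batch that the labels give each array cannot be told apart. Pair errors came from least squares.

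Members and lists were chosen with earlier results of these data known. All members were named, and of the factor lists those that passed or, where none did, the one farthest from 0; others were added after their values were seen. The planned promoter motif search was not run.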

Additional observations from a re-analysis of the deposited data

How the results depend on the processing

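No paired analysis was possible because each time point is 1 array and the labels give no replicate numbers. Leaving out 1 array gave between 15 and 18 subunit genes fallen and 0 risen, where between 13.3% and 22.5% of all genes fell. The medians ran from -1.32 to -1.04 for polymerase I, -0.99 to -0.76 for polymerase III and -0.58 to -0.16 for polymerase II. The count fallen was 11 without the 0 h and 9.5 h arrays and 7 with hours in place of glucose, where the polymerase I median was -1.50; the cause was not tested. Scaling all arrays to one spread, which by construction shrinks the 2 late arrays, gave 7 fallen, medians of -0.67, -0.50 and -0.21 for polymerases I, III and II, and 1 and 3 genes at least 2-fold below the 0.14 OD culture at 18.5 h and 20.5 h. Over all genes the calls were 389 lower and 274 higher with that scaling, 233 and 266 with hours, 512 and 597 with log2 OD, and 444 and 392 without the 0 h and 9.5 h arrays. As shares of all genes, 8.09% fell with that scaling, 4.85% with hours, 10.7% with log2 OD and 8.86% without the 0 h and 9.5 h arrays. Relative to the 0 h array, 13 and 15 subunit genes were at least 2-fold lower at 18.5 h and 20.5 h. The share of all genes at least 2-fold lower was not computed relative to the 0 h array or after scaling. Those counts therefore cannot be set against a background.

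Of the 18 genes that fell, RPA34, RPA49, RPC40 and RPB8 passed in all 16 other settings, RPC31 in 5, RPC34 in 6 and RPB2 in 9, and none turned its sign. Signs turned for 4 genes that did not pass. RPA135 came to 0.039 as deposited, 0.038 scaled and 0.028 without the 0 h and 9.5 h arrays, and ranged from -0.37 to 0.063 when 1 array was left out. RPC25 came to 0.12 as deposited, 0.051 centred in runs of 40 probe IDs, 0.050 scaled, 0.019 with hours and 0.039 as a step of the 2 late arrays, ranging from -0.27 to 0.073. RPB4 came to 0.13 as deposited and 0.021 with log2 OD, ranging from -0.28 to 0.29. RPA14 came to 0.075 scaled, ranging from -0.51 to 0.0055. RPB3 passed as a step (-0.59). Of 4 passing pairs, RPO31 against RPO21 was lost with hours (-0.55) and log2 OD (-0.51), and RPA43 against RPC25 with hours (-1.52); these settings were chosen after seeing the data.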
